A study of Oryctolagus cuniculus with 20 samples.

Results

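TGFB1, BMP2 and BMP4 encode secreted growth factors of the transforming growth factor beta superfamily. All array probes for these 3 genes were taken. The array files give the BMP2 probes the gene name BMP-2. The BMP4 probes carry an Ensembl transcript identifier as gene name and were named by the symbol in their description. The TGFB1 probe was named through its LOC number in a RefSeq gene table and is described in the files as transforming growth factor beta-1. The probes of the 3 genes were 14 of 43603: 1 for TGFB1, 8 for BMP2 and 5 for BMP4. On the whole array 2656 probes could be named, for 890 genes.

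Ligands of this family bind pairs of serine/threonine kinase receptors, which phosphorylate SMAD proteins that then enter the nucleus and regulate transcription. TGFB1 is stored in cartilage matrix in a latent form, and its signalling favours matrix synthesis and restrains the hypertrophy of chondrocytes. BMP2 and BMP4 are close relatives that drive chondrocyte and osteoblast differentiation. The transcript levels measured here carry no information on activation of the latent protein.

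The tissue was the cartilage of the mandibular condyle, which covers the jaw side of the temporomandibular joint, of male rabbits aged 6 months. In 4 groups the left joint had been surgically deranged, and the animals were sampled 1, 2, 4 or 8 weeks later. The control group was untreated, with no sham operation and no time of its own. Each of the 5 groups had 4 arrays, 20 in all, which the design text assigns to separate rabbits. The study asked how transcription in this cartilage changes in the weeks after derangement. Because there was no sham group, the operation itself and the derangement it caused cannot be told apart.

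The arrays measured 1 RNA sample each in a single colour, and the deposited value of a spot is a linear intensity in arbitrary units. Each group was hybridised on a slide of its own, so slide and group cannot be told apart. The 2-week and control arrays were scanned on 1 day and the other groups on another. Per array, the signal's 75th percentile lay between 174.0 and 641.6, and 49.1% to 66.4% of spots were well above background. The lowest of both belonged to 1-week replicate 4. Levels below are log2 intensities minus the array's own 75th percentile, so a level of 1 is a signal at 2 times that percentile. Levels of different probes were not set against each other. All 14 ligand probes were well above background on all 20 arrays.

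The probe that carries the values of each ligand is 60 bases long and is printed 5′ to 3′ as it stands in the array files. The BMP2 and BMP4 probes show how far the probes of close relatives share sequence: capitals mark the bases identical between these 2 probes at their best alignment without gaps. The TGFB1 probe is in lower case throughout.
TGFB1: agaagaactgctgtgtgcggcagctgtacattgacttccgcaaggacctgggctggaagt
BMP2: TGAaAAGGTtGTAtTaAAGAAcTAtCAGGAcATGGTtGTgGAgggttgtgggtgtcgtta
BMP4: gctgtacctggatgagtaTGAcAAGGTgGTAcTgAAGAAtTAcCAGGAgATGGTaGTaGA
The BMP2 and BMP4 probes shared 33 of 42 aligned bases, in runs of at most 5. Binding of a relative's transcript to these probes was not tested.

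The probes of a gene were not independent readings. The 5 BMP4 probes started at bases 774 to 778 of their record and so differed by single-base shifts, and their levels correlated across the 20 arrays with Pearson's r of 0.975 to 0.991. Of the 8 BMP2 probes, 5 overlapped at bases 1189 to 1196 and 3 lay further 3′ at bases 1962, 2033 and 2073. All 8 correlated at 0.925 to 0.998. Values below are those of the probe with the highest mean level, which for the 3 ligands is the probe printed above.

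No ligand probe changed past the threshold at any time. The test was limma's moderated test over the 26905 kept probes, with a call at a Benjamini-Hochberg adjusted p under 0.05. None of the 14 probes was called against control, between times or in the F test over the 5 groups. The share of all tested probes called against control was 13.9% at 1 week, 0.453% at 2 weeks, 8.56% at 4 weeks and 12.8% at 8 weeks. Between times the share was 11.4% for 2 weeks against 1 week, 1.07% for 4 against 1 and 0.0149% for 8 against 1. It was 4.3% for 4 weeks against 2, 8.62% for 8 against 2 and 0.558% for 8 against 4, and 15.8% in the F test. The shares divided by scan day. Groups scanned on the same day (2 weeks against control, 4 against 1, 8 against 1 and 8 against 4) had 0.0149% to 1.07%. Groups scanned on different days had 4.3% to 13.9%, and there scan day and group cannot be told apart. The F test's adjusted p was 0.223 for TGFB1, 0.654 for BMP2 and 0.561 for BMP4. The 4 comparisons with control share the same 4 control arrays.

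TGFB1 had its highest levels 8 weeks after surgery. Its log2 levels were 0.68, 0.74, 0.55 and -0.53 at 1 week, replicates 1 to 4. They were 0.47, 0.60, 0.49 and 0.41 at 2 weeks, and 0.36, 0.50, 0.42 and 0.61 at 4 weeks. They were 0.80, 0.85, 0.78 and 0.96 at 8 weeks, against 0.26, 0.48, 0.28 and 0.16 in control. The 4 arrays of the 8-week group thus lay above each of the other 16 arrays, and 1-week replicate 4 lay far below its own group. That array read an intensity of 121, against 406 to 733 on the other 1-week arrays.

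TGFB1 averaged 0.85 ± 0.08 at 8 weeks and 0.29 ± 0.13 in control (SD, n = 4 each). The difference was 0.55 on the log2 scale (SE 0.20, 95% interval 0.14 to 0.97), or 1.47-fold. The exact permutation test over arrays gave p = 0.0286, the smallest that 4 against 4 arrays allow. The limma adjusted p was 0.0732, so the difference was not called over the whole array. The unadjusted limma p was 0.0116, and 7388 of the 26905 tested probes had one under 0.05 in this comparison. The share of all probes whose groups did not overlap was not counted, so how unusual this separation is cannot be said. That fit shares a spread estimate over the 5 groups, and the SD of TGFB1 was 0.60 at 1 week, against 0.08 at 2 weeks, 0.11 at 4 weeks, 0.08 at 8 weeks and 0.13 in control. Without 1-week replicate 4, the difference of 0.55 had a limma adjusted p of 0.00045.

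The 8-week and control arrays were scanned on different days, so scan day and group cannot be told apart in that comparison. Against groups scanned on its own day, TGFB1 at 8 weeks was higher by 0.49 (SE 0.20, adjusted p = 0.268) than at 1 week and by 0.38 (adjusted p = 0.429) than at 4 weeks in limma. It was 0.36 higher than at 2 weeks, scanned on the other day (adjusted p = 0.299). None of these was called. The groups did not overlap, and the share of all probes without overlap was not counted. Without 1-week replicate 4, limma called 8 weeks against 2 weeks (adjusted p = 0.0136), 8 against 4 (0.0408) and the F test (0.00249), while 8 weeks against 1 week was 0.19 and was not called. In order of mean level the groups ran 8 weeks, 2 weeks, 4 weeks, 1 week and control. Beyond the first step of that order, neighbouring groups overlapped.

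The other times were closer to control for TGFB1. The difference was 0.07 (SE 0.20, adjusted p = 0.851) at 1 week, 0.20 (0.915) at 2 weeks and 0.18 (0.632) at 4 weeks in limma. The 1-week value turned on replicate 4: without it, TGFB1 was 0.365 higher than control and was called (limma adjusted p = 0.0197). Of the 4 arrays at 1 week, 3 lay above all control arrays and 1 lay below all of them. At 2 and at 4 weeks 2 of 4 arrays lay above all control arrays.

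**Figure D1:**
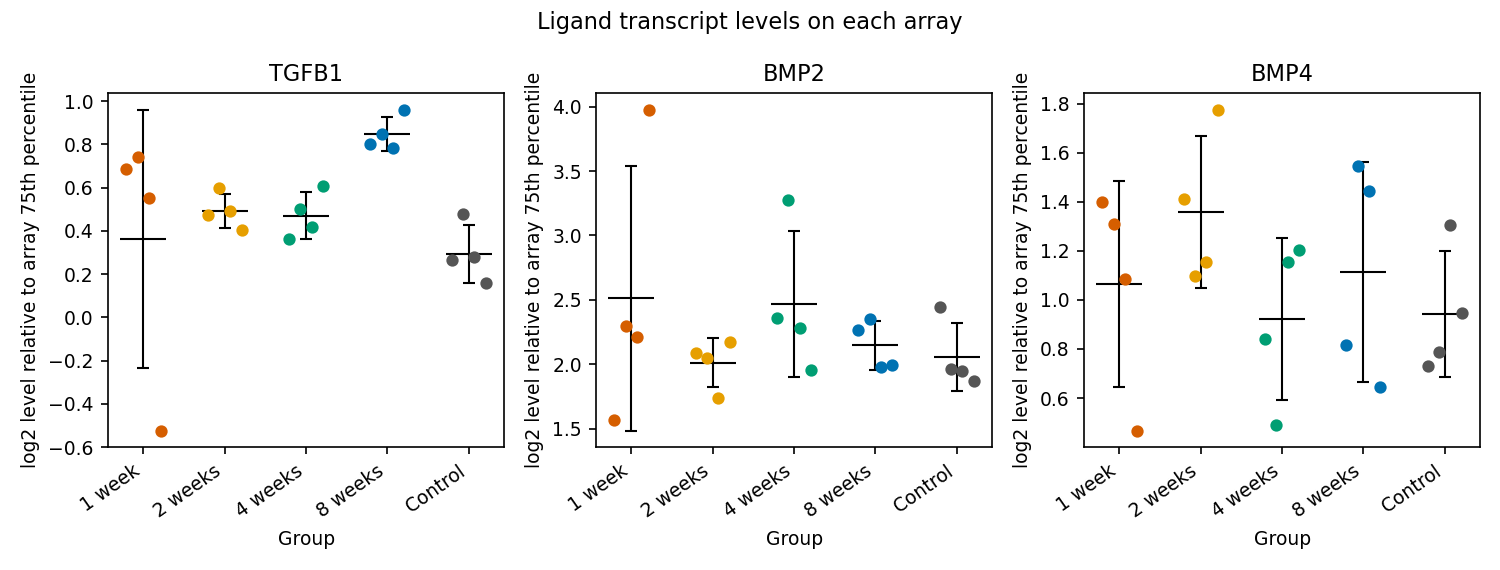
Log2 level of TGFB1, BMP2 and BMP4 relative to the array's 75th percentile, for each of the 4 arrays at 1, 2, 4 and 8 weeks after surgery and in control. Points are arrays in replicate order, horizontal marks are group means and error bars are SDs. The 8-week TGFB1 arrays lie above all others, and 1-week replicate 4 is the lowest array of its group for TGFB1 and BMP4 and the highest for BMP2.

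**Figure D2:**
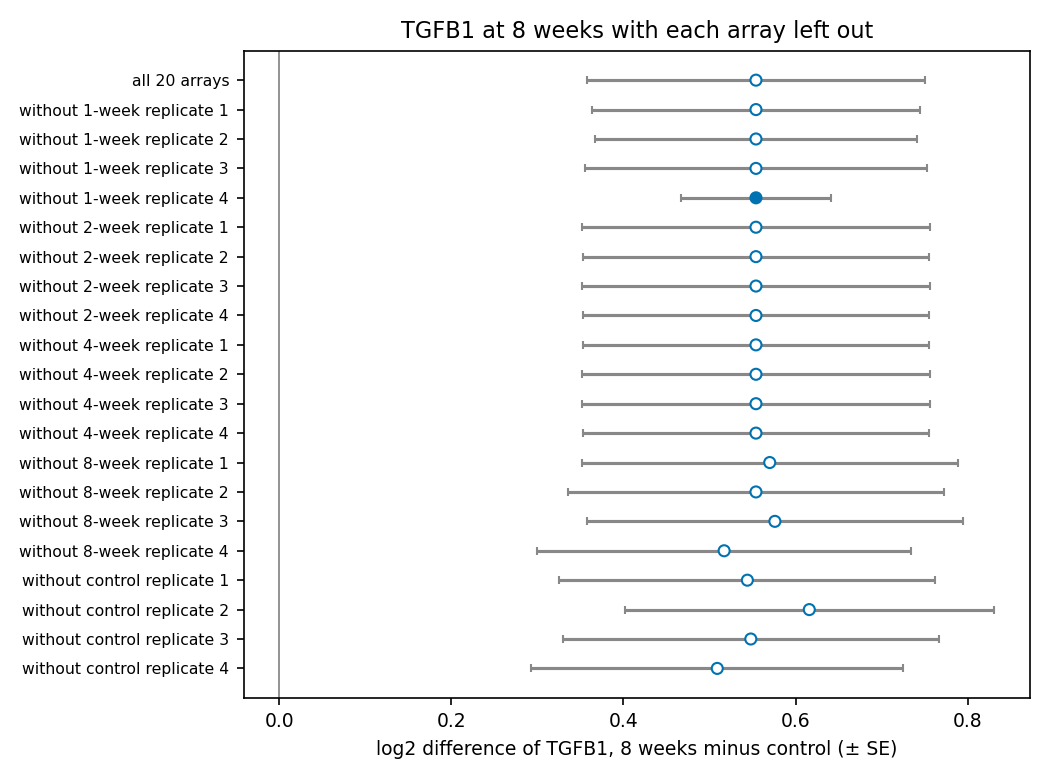
Log2 difference of TGFB1 at 8 weeks minus control with all 20 arrays and with each array left out, with the SE of the limma fit as error bars. Filled points passed an adjusted p of 0.05. The difference stays between 0.51 and 0.62, and it is called without 1-week replicate 4, where the error is smallest.

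Control tissue carried more skeletal muscle transcripts than operated tissue. The summed log2 level of 9 measured muscle markers of 12 listed ran from -0.97 to 1.20 at 1, 2 and 4 weeks and from -0.77 to -0.39 at 8 weeks, against 1.96 to 8.81 in control. Control replicates 1 and 2 were the highest, at 6.33 and 8.81. Without these arrays the TGFB1 difference at 8 weeks was 0.63 (SE 0.25, limma adjusted p = 0.217). The summed level of 3 macrophage markers of 5 listed was 1.34 to 2.34 at 8 weeks and 2.33 to 2.88 in control. The neutrophil and osteoclast lists lay higher or mostly higher at 8 weeks. The summed level of 2 neutrophil markers of 4 listed was 0.28 to 0.41 at 8 weeks and -0.86 to 0.22 in control, and that of 3 osteoclast markers was 9.76 to 10.23 at 8 weeks and 9.39 to 9.81 in control. In each of these lists 1 gene was called higher at 8 weeks, where 12.8% of all tested probes were called. The neutrophil sum was also 0.228 to 0.999 at 1 week and 0.38 to 0.96 at 4 weeks, and -1.14 to -0.16 at 2 weeks. It was thus higher in the groups scanned on the 8-week day than in the 2-week and control groups, scanned on the other day. For the marker lists too, scan day and group cannot be told apart between 8 weeks and control. The summed level of 4 fibrous tissue markers of 5 listed was 10.20 to 10.40 at 8 weeks and 10.39 to 10.60 in control, with 1 gene called lower. Blood markers (6.18 to 7.74 against 5.87 to 6.75 in control), the osteoblast marker (8.12 to 8.69 against 8.11 to 8.62) and endothelial markers (-0.91 to 0.08 against -1.28 to 0.53) overlapped control with no call. The part of macrophage, neutrophil or osteoclast RNA in the TGFB1 difference was not tested. In bulk tissue such as this, fewer cells of a type and less RNA per cell cannot be told apart.

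BMP2 was not called at any time, and its highest levels came from single arrays at 1 and 4 weeks. Its log2 levels were 1.57, 2.30, 2.21 and 3.98 at 1 week and 2.09, 2.05, 1.74 and 2.17 at 2 weeks. They were 2.36, 3.27, 2.28 and 1.95 at 4 weeks and 2.27, 2.35, 1.98 and 1.99 at 8 weeks, against 2.44, 1.96, 1.95 and 1.87 in control. Replicate 4 at 1 week and replicate 2 at 4 weeks were the highest of the 20 arrays, and every operated group overlapped control.

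The BMP2 difference from control was 0.46 at 1 week (SE 0.37, 95% interval -0.32 to 1.23, limma adjusted p = 0.436). It was -0.04 (adjusted p = 0.996) at 2 weeks, 0.41 (0.541) at 4 weeks and 0.09 (0.904) at 8 weeks. The 4-week interval ran from -0.37 to 1.19, so changes past 2-fold lay within the error at both times. Without replicate 4 the 1-week difference was -0.03. All 8 BMP2 probes lay above control at 1, 4 and 8 weeks and 2 of 8 at 2 weeks. The 3 probes further 3′ gave 1-week differences at the low end of the range of 0.24 to 0.49. The order of mean levels was 1 week, 4 weeks, 8 weeks, control and 2 weeks, and no neighbours in it were separated by more than their spread.

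BMP4 was highest on average at 2 weeks, within the spread of the arrays. Its log2 levels were 1.40, 1.31, 1.08 and 0.47 at 1 week and 1.41, 1.096, 1.15 and 1.78 at 2 weeks. They were 0.84, 0.49, 1.15 and 1.20 at 4 weeks and 0.82, 1.55, 1.44 and 0.65 at 8 weeks, against 0.73, 0.79, 1.30 and 0.95 in control. Every operated group overlapped control, and the 8-week arrays fell into a high and a low pair.

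The BMP4 difference from control was 0.42 at 2 weeks (SE 0.25, 95% interval -0.10 to 0.93, limma adjusted p = 0.769). These 2 groups shared a scan day, and the exact permutation p was 0.114. The difference was 0.12 (adjusted p = 0.777) at 1 week, -0.02 (0.974) at 4 weeks and 0.17 (0.708) at 8 weeks. All 5 BMP4 probes lay above control at 1, 2 and 8 weeks and 4 of 5 at 4 weeks. Without control replicates 1 and 2 the 2-week difference was 0.23, and the 1-week and 8-week differences turned to -0.06 and -0.01. In order of mean level the groups ran 2 weeks, 8 weeks, 1 week, control and 4 weeks, and all neighbours overlapped.

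**Figure D3:**
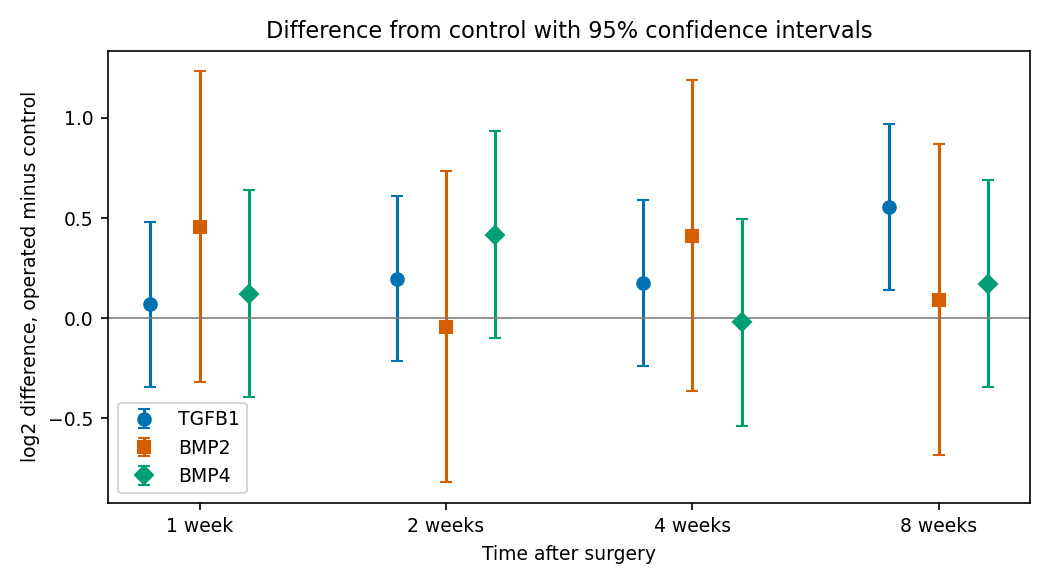
Log2 difference of each operated group minus control for TGFB1, BMP2 and BMP4 at 1, 2, 4 and 8 weeks, with 95% confidence intervals from limma, unadjusted for the number of probes. The TGFB1 interval at 8 weeks, 0.14 to 0.97, lies above 0, and the other 11 intervals include 0.

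**Figure D4:**
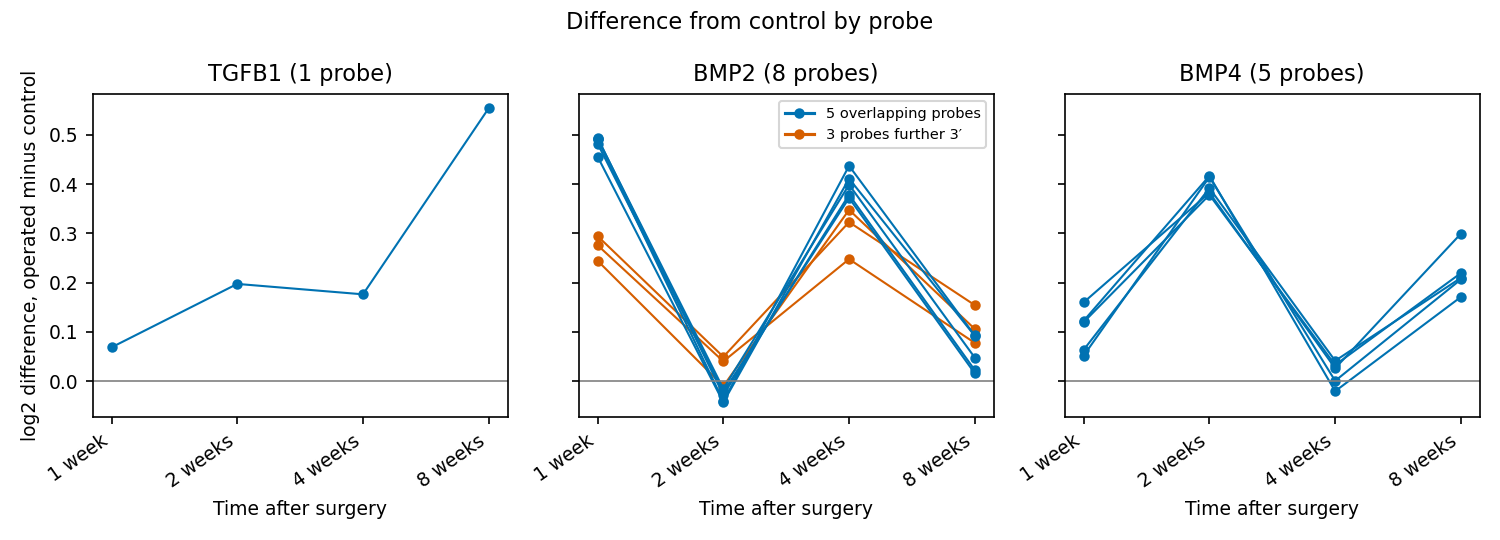
Log2 difference of each operated group minus control for each probe of TGFB1 (1), BMP2 (8) and BMP4 (5), with lines joining the values of a probe. BMP2 probes are coloured by position. Probes of a gene follow the same course, and the 3 BMP2 probes further 3′ differ less at 1 week.

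Array by array, the ligands were next set beside cartilage markers. The summed level of 4 measured cartilage markers of 9 listed, COL2A1 (the main collagen of cartilage), ACAN (its large proteoglycan), SOX9 (the chondrocyte transcription factor) and CNMD (chondromodulin), rests mostly on COL2A1. It ran from 8.998 to 11.29 at 1 week, 7.61 to 8.99 at 2 weeks, 9.36 to 10.42 at 4 weeks and 7.22 to 9.69 at 8 weeks, against 8.55 to 9.55 in control. COL2A1 was well above background on all 20 arrays, with a level of 7.21 or more. The summed level was highest on 1-week replicate 4, at 11.29, and next on 4-week replicate 2, at 10.42. These 2 arrays were also the highest in BMP2 and the lowest in BMP4, and 1-week replicate 4 was the lowest in TGFB1.

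Over the 20 arrays BMP4 fell with this sum, with Pearson's r = -0.686 (permutation p = 0.00074, adjusted over 9 relations 0.00666) and Spearman's rho = -0.550 (permutation p = 0.0131, adjusted 0.118). Without the 2 arrays farthest from the median sum, r was -0.551. Within the scan days it was -0.469 over 8 arrays and -0.772 over 12 arrays, and for deviations from group means it was -0.769. BMP2 rose with the sum with r = 0.550 (permutation p = 0.0161, adjusted 0.0453) but rho was 0.221 (permutation p = 0.348, adjusted 0.626). Without the farthest 2 arrays r was 0.393, and within the scan days it was -0.547 and 0.628, so the relation did not hold within both. For TGFB1, r was -0.473 (permutation p = 0.0427, adjusted 0.0614), rho was -0.090 (permutation p = 0.703, adjusted 0.798), and r was 0.107 without those 2 arrays. It was -0.330 and -0.675 within the scan days. The TGFB1 relation rested on 1-week replicate 4, since r was -0.108 without that array alone. The permutations shuffled all 20 arrays without regard to group, slide or scan day. The ligand level and the sum are also both relative to the same percentile of the array. The permutation p, here and between ligands, allows for neither.

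Between ligands, the negative relations followed the same arrays. BMP2 and BMP4 had r = -0.555 (permutation p = 0.00776, adjusted 0.0349) and rho = -0.364 (permutation p = 0.116, adjusted 0.522). The value was -0.130 without 1-week replicate 4 and 4-week replicate 2, and -0.048 and -0.681 within the scan days. TGFB1 and BMP2 had r = -0.599 (permutation p = 0.0224, adjusted 0.0453) and rho = -0.141 (permutation p = 0.553, adjusted 0.798). The value was -0.008 without the 2 farthest arrays, and -0.143 and -0.797 within the scan days. TGFB1 and BMP4 had r = 0.360 (permutation p = 0.118, adjusted 0.133) and rho = 0.256 (permutation p = 0.277, adjusted 0.626). The value was 0.298 without the 2 farthest arrays, and 0.199 and 0.506 within the scan days. Neither negative relation was left at that size without its farthest arrays, which for TGFB1 and BMP2 were 1-week replicate 4 and 8-week replicate 4.

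The ligand levels were also set beside the array's own signal. Each level is a log2 intensity minus this same percentile, so the 2 quantities share a term. The permutation p does not allow for that, and no conclusion is drawn from it. The log2 75th percentile of signal and the TGFB1 level had r = 0.524 (permutation p = 0.0252, adjusted 0.0453) and rho = 0.245 (permutation p = 0.297, adjusted 0.626). The value was 0.238 without 1-week replicates 2 and 4, the farthest arrays, 0.075 without replicate 4 alone, and 0.026 and 0.565 within the scan days. For BMP2, r was -0.463 (permutation p = 0.0477, adjusted 0.0614), rho was 0.089 (permutation p = 0.709, adjusted 0.798), and r was 0.143 without the 2 farthest arrays and 0.467 and -0.661 within the scan days. For BMP4, r was 0.160 (permutation p = 0.504, adjusted 0.504), rho was 0.041 (permutation p = 0.867, adjusted 0.867), and r was -0.081 without the 2 farthest arrays and -0.437 and 0.383 within the scan days. Without 1-week replicate 4 alone, the dimmest array, r was 0.064 for BMP2.

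**Figure D5:**
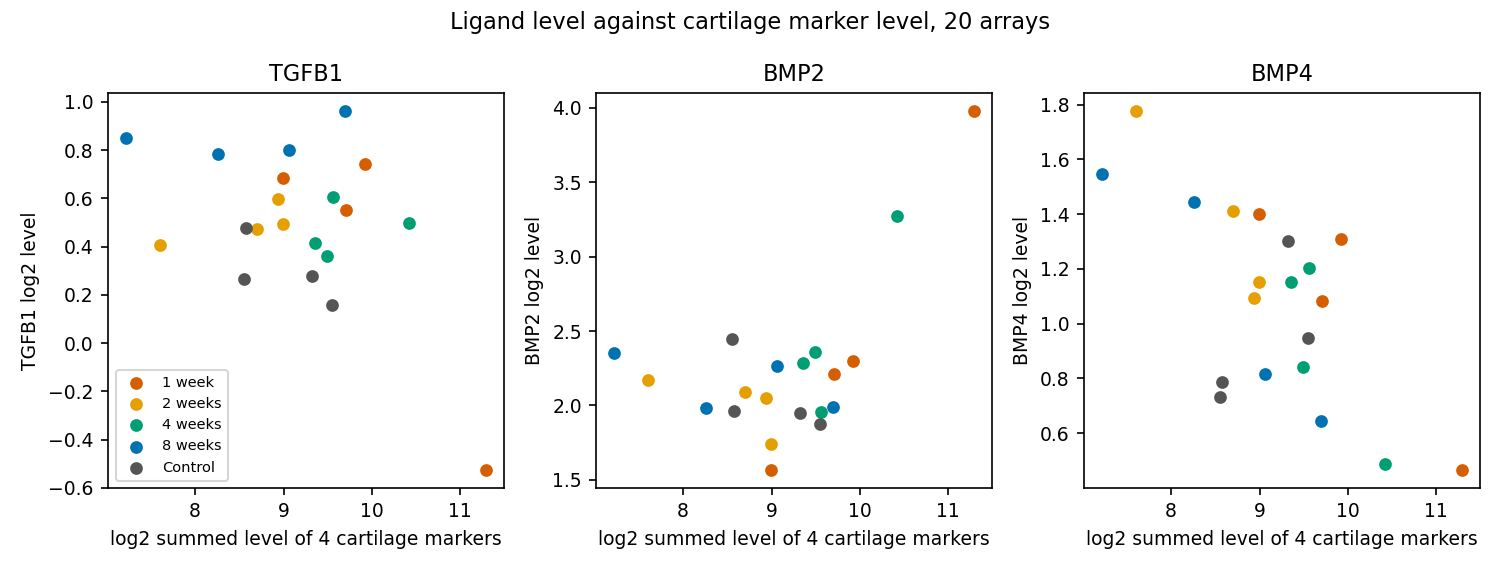
Log2 level of TGFB1, BMP2 and BMP4 on each of the 20 arrays against the log2 summed level of 4 cartilage markers, coloured by group. BMP4 falls along the axis (r = -0.686), while the BMP2 and TGFB1 relations turn on the 1-week array at 11.29.

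The genes that followed a ligand most closely over the 20 arrays were taken by Pearson correlation among 659 named genes, as a description. For TGFB1 they were DMBT1 (a secreted mucosal glycoprotein) at 0.798, EIF2B2 (a translation initiation factor subunit) at 0.792 and TIMP1 (an inhibitor of matrix metalloproteinases) at 0.771. Without 1-week replicate 4 the values were 0.616, 0.811 and 0.639. For BMP2 they were LOC100008867, described as an interferon responsive gene, at 0.823, ACO1 (a cytosolic aconitase) at 0.811 and CRYL1 at 0.798, and without that array 0.505, 0.541 and 0.500. For BMP4 they were CCND1 (cyclin D1) at 0.741, TPD52 at 0.728 and SLC15A2 (a peptide transporter) at 0.706, and without that array 0.679, 0.694 and 0.636.

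Other ligands of the superfamily had no call either. Of 20 listed, 5 had a probe named here and 3 were kept: TGFB2, BMP7 and a BMP5-like transcript. MSTN and LEFTY2 were not well above background often enough. The median difference of the 3 genes was 0.28, 0.04, 0.08 and -0.24 at 1, 2, 4 and 8 weeks, against 0.02, 0.04, 0.03 and 0.04 over all probes tested. TGFB2, a close relative of TGFB1, had levels of -0.10, 0.11, 0.08 and 0.27 at 8 weeks, against 0.47, 0.53, 0.49 and 0.41 in control. All 4 arrays at 8 weeks lay below all control arrays, and the 3 TGFB2 probes went the same way. The difference was -0.38 (SE 0.26, exact permutation p = 0.0286, limma adjusted p = 0.368) and was not called. At 8 weeks TGFB1 thus lay above and TGFB2 below all control arrays, with neither called. In this comparison 7388 of 26905 tested probes had an unadjusted limma p under 0.05. Probes separated from control in either direction were not counted, so whether this is particular to the 2 ligands cannot be said.

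BMP7, another bone morphogenetic protein, had levels of 1.17, 1.37, 1.46 and 1.57 at 2 weeks, against 0.62, 0.69, 0.93 and 0.69 in control. The groups, scanned on the same day, did not overlap, and 5 of 5 probes went up. How many of all tested probes were separated in this way was not counted. The difference was 0.66 (SE 0.31, exact permutation p = 0.0286, limma adjusted p = 0.63). At 1, 4 and 8 weeks it was -0.06, 0.08 and 0.12. The BMP5-like transcript differed from control by -0.24 to 0.28, with adjusted p of at least 0.392 in limma.

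Receptors and modulators were thinly covered. Of 11 receptors listed, ACVR2B (a type II activin receptor) alone had a named probe, and it differed by -0.34 to 0.09 from control with no call. None of the 8 SMAD genes listed had one, so the intracellular step of the pathway could not be read. Of 13 extracellular modulators, DCN and BGN, matrix proteoglycans that bind TGF-beta, were measured and neither was called. BGN differed by 0.70 (SE 0.27, adjusted p = 0.101) at 8 weeks and 0.58 (0.160) at 1 week in limma. Its 8-week levels of 3.57, 2.62, 2.53 and 3.55 overlapped control levels of 2.37, 2.64, 2.09 and 2.39. DCN differed by -0.90 (SE 0.43, adjusted p = 0.169) at 1 week and -0.20 at 8 weeks.

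Of 26 symbols listed as responsive to TGF-beta or BMP, 16 genes were measured, and 1 of them was called against control, higher at 1 week. Over all tested probes the share called at 1 week was 13.9%, so 1 of 16 is no excess. The median difference was 0.29 at 1 week, 0.03 at 2 weeks, 0.14 at 4 weeks and 0.02 at 8 weeks. The medians over all probes were those given above. The called gene was SOX9, a chondrocyte transcription factor. Its levels were -3.68, -2.88, -3.18 and -1.57 at 1 week, against -4.75, -4.10, -4.99 and -3.97 in control, where no array read it well above background. The mean 1-week level, -2.825, was at least 1.99-fold above control if the lowest level well above background, on average -3.815, stands for control. That mean includes replicate 4 at -1.57, and the bound was not computed without it. The limma adjusted p of 0.0194 belongs to the fitted difference, which uses the control values not well above background. Without 1-week replicate 4 the fitted difference was 1.21 and was not called (adjusted p = 0.0661), and without control replicates 1 and 2 the adjusted p was 0.108. It was 0.0584 after quantile normalization and 0.961 after normexp background correction. SOX9 is also 1 of the 4 cartilage markers above. The 1-week and control arrays were scanned on different days, so scan day and group cannot be told apart in this call.

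ACAN, the cartilage proteoglycan, was at -1.93, -1.26, -1.91 and 0.11 at 1 week, against -1.96, -2.46, -2.70 and -1.95 in control, with no overlap. Its difference of 1.02 (SE 0.39, adjusted p = 0.0864) was not called in limma, and was 0.57 without 1-week replicate 4. The share of all probes with no overlap at 1 week was not counted. CCN2, the connective tissue growth factor, had levels of -0.999, 0.26, -0.38 and 1.01 at 1 week and -0.53, 1.21, -0.51 and -0.18 at 4 weeks, against -1.40, -1.64, -0.71 and -1.10 in control. It differed by 1.19 (SE 0.43, adjusted p = 0.0764) at 1 week and 1.21 (0.0941) at 4 weeks. The same 2 arrays that were highest in BMP2 were highest in CCN2 in their groups. The 1-week and 4-week arrays were scanned on another day than control, so scan day and group cannot be told apart for ACAN and CCN2.

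Between 2 weeks and 1 week, limma called ACAN, RUNX2 and SOX9 among the responsive genes. In that comparison 11.4% of all tested probes were called. ACAN was lower at 2 weeks by 1.41 (SE 0.39, adjusted p = 0.0253) and RUNX2, a transcription factor of hypertrophic chondrocytes and osteoblasts, by 0.65 (SE 0.18, adjusted p = 0.0246). RUNX2 is named after its values were seen. SOX9 was lower too, and was not well above background on any 2-week array. By the same reckoning its mean was at least 1.93-fold lower, with 1-week replicate 4 included. Without 1-week replicate 4 none of the 3 was called in limma, with an adjusted p of 0.0725 for RUNX2 and 0.0690 for SOX9. These groups were scanned on different days, so day and time cannot be told apart. Calls were also gained without 1-week replicate 4. In limma ACAN was then called higher at 4 weeks than at 2 weeks, and ACTA2, of the responsive list, lower at 4 weeks than in control. Both comparisons were across scan days, and ACTA2 is named after its values were seen.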

How the data were processed

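Total RNA of condylar cartilage was labelled with Cy3 and hybridised to 20 arrays. Per the file headers, the authors read the arrays with Agilent Feature Extraction 10.7.1.1 (also named in the submitters' processing notes), and the deposited values used here are the processed spot intensity, background-subtracted and detrended within each array. The authors' value table, also deposited as intensity, was an alternative. Each of its 8-week columns matched another 8-week array than the one it is labelled for. Replicate numbers at 8 weeks are therefore in doubt, which leaves the group means untouched.

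Outlier spots, 5 to 62 per array, were left out. Intensities were put on the log2 scale, minus the array's 75th percentile. Probes well above background on 3 of 4 arrays of a group were kept. Differences were fitted with limma 3.58.1 in R 4.3.3 as 5 group means over 20 arrays, adjusted over the kept probes. Exact permutation tests, two-sided, ran over arrays. On simulated data of 26905 probes with 100 changed, 66% of changes of 1 and 92% of changes of 2 log2 units at 1 week were recovered. Changes as small as the ligand differences were not simulated, so these shares do not apply to them. The members and lists were chosen with earlier results of these data known. Pathway genes are named if called against control or among the 4 of their list with the lowest F test p, and for each ligand the 3 genes of highest correlation with it. A RefSeq table of rabbit genes supplied names. Summed marker levels are log2 of the added linear levels. The number of arrays limits the precision. Alternatives covered scaling, background correction, filters, array weights, the replicate block and each array left out. A gene of the responsive list, counted among those measured, is not reported here.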

Additional observations from a re-analysis of the deposited data

Results flagged for a closer look

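TGFB1 on 1-week replicate 4 had a log2 level of -0.526, against 0.551 to 0.741 on the other 1-week arrays. It was marked because its gap to the nearest array exceeded Dixon's 95% critical value for 4 samples. That array also had the lowest 75th percentile of signal, 174.0, the highest summed cartilage marker level, 11.29, and the lowest fitted array weight, 0.153. The part of these in the TGFB1 value was not tested.

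BMP2 on control replicate 1 had a log2 level of 2.443, against 1.873 to 1.961 on the other control arrays, by the same criterion. That array had a summed muscle marker level of 6.33. Its part in the BMP2 value was not tested. The criterion was applied to 15 groups, 5 for each ligand, and chance marks about 1 in 20 groups.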

How the results depend on the processing

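Quantile normalization, the deposited value table, both other filters and the trended robust spread estimate left each of the 33 ligand results in its direction and on its side of the threshold. TGFB1 at 8 weeks minus control, 0.55 and not called with all arrays, was positive under every alternative run. It was called in limma with array weights (0.538, adjusted p = 0.00233), with the 75th percentile taken over probes above background on all arrays (0.621, adjusted p = 0.0387), without 1-week replicates 2 and 4 (adjusted p = 0.000596) and in a fit of the groups compared (adjusted p = 0.0133). Its adjusted p was 0.271 with median centring (0.389) and 0.374 with normexp (0.483). The TGFB1 F statistic was 6.28 with array weights and 10.87 without 1-week replicates 2 and 4, both called. The percentile variant and the settings that leave out 2 arrays were chosen after seeing the data.

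Directions of some differences turned, not all of them small, and the cause was not tested. Against control these were, with median centring, TGFB1 at 1 week (-0.07), BMP4 at 1 week (-0.016) and BMP2 at 8 weeks (-0.073). Without 1-week replicates 2 and 4, BMP2 at 1 week was -0.168, against 0.456 with all arrays. Without control replicates 1 and 2, BMP4 at 1 and 8 weeks was -0.061 and -0.013 and BMP2 at 2 weeks was 0.102. BMP4 at 4 weeks was 0.081 with normexp, 0.058 with array weights, 0.016 as the mean of its probes and 0.001 with the other percentile. The median difference of all probes at 1, 2, 4 and 8 weeks, 0.02, 0.04, 0.03 and 0.04 as reported, was -0.12, 0.05, -0.10 and -0.12 with median centring, and with normexp it was -0.08 at 4 weeks and -0.07 at 8 weeks.

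Between times, with array weights TGFB1 was -0.066 (2 minus 1) and -0.095 (4 minus 1), and BMP2 was 0.197 (4 minus 1) and 0.028 (8 minus 1). Without 1-week replicates 2 and 4, TGFB1 was -0.126 and -0.147 (2 and 4 minus 1), BMP2 was 0.125, 0.579 and 0.260 (2, 4 and 8 minus 1) and BMP4 was -0.129 (8 minus 1). With all arrays these BMP2 differences were -0.499, -0.045 and -0.364. With normexp, BMP2 was 0.028 (4 minus 1), TGFB1 was 0.054 (4 minus 2) and BMP4 was 0.045 (8 minus 2). TGFB1 was 0.047 (4 minus 2) with the other percentile, and BMP2 was -0.044 (8 minus 2) with median centring.

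With each array left out in turn, differences from control at 1 week ran from -0.058 to 0.365 for TGFB1, -0.032 to 0.771 for BMP2 and 0.011 to 0.322 for BMP4. At 2 weeks they ran from 0.152 to 0.259, -0.104 to 0.086 and 0.278 to 0.537 for the same genes. At 4 weeks they ran from 0.131 to 0.238, 0.142 to 0.583 and -0.115 to 0.124, and at 8 weeks from 0.509 to 0.616, 0.024 to 0.221 and 0.026 to 0.327. Between times, TGFB1 ran from -0.167 to 0.255 (2 minus 1), -0.189 to 0.234 (4 minus 1) and -0.066 to 0.016 (4 minus 2). BMP2 ran from -0.360 to 0.443 (4 minus 1) and -0.679 to 0.124 (8 minus 1), and BMP4 from -0.343 to 0.001 (4 minus 1) and -0.151 to 0.204 (8 minus 1). The F statistic of TGFB1 ran from 1.61 to 11.41, of BMP2 from 0.632 to 1.85 and of BMP4 from 0.473 to 1.48.

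Same-numbered arrays showed no steady likeness: over 40 such pairs, deviations from group means correlated from -0.33 to 0.384, and 8 pairs exceeded 0.1. Replicate numbers at 8 weeks are in doubt, so pairs with that group cannot show whether its arrays were paired. With the replicate number as a block, TGFB1 at 8 weeks was 0.554 (limma adjusted p = 0.0796), and no ligand call changed. That fit rests on the same replicate numbers. The number of all probes called against control at 1, 2, 4 and 8 weeks was 3745, 122, 2304 and 3433. It was 44, 0, 28 and 35 with normexp, 3756, 377, 5028 and 5579 with array weights, and 1480, 54, 771 and 965 without control replicates 1 and 2. It was 3601, 74, 2102 and 2959 with no filter, 1397, 0, 2029 and 3321 in fits of the groups compared, and 2788, 169, 3700 and 4704 without 1-week replicate 4. The 2-week counts of 0 come from limma, with 543 (normexp) and 2249 (groups compared) probes at an unadjusted p under 0.05. The 4 arrays per group, each group on 1 slide, limit what these values can show, and the single TGFB1 probe has no second probe beside it.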
